A study of Mus musculus with 12 samples.

Results

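Mitochondrial ribosomal proteins are the nuclear-encoded proteins of the ribosome that works inside mitochondria. They were described here in haematopoietic stem and progenitor cells of the mouse bone marrow. The genes were chosen by name and annotation alone, as protein-coding rows of the count table whose symbol is Mrpl or Mrps followed by a number and at most 1 letter from a to c. This gave 78 of the 54532 gene rows, and of the 22046 protein-coding rows, with 49 Mrpl and 29 Mrps names. Of them, 77 passed the filter on low counts and were tested, with 105 to 2936 counts in each library. The other, Mrpl53, had no count in any library. Mrps36 fits the rule by name, although its product is now known as a subunit of the alpha-ketoglutarate dehydrogenase complex, and it stood at 30.7 ± 6.32 CPM per kilobase (SD, n = 12 libraries). The rule left out 5 processed pseudogenes of Mrpl23, Mrpl48 and Mrps36, which had 0 to 95 counts.

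Bulk RNA sequencing was done on lineage-negative, cKit-positive (Lin-cKit+) cells that were sorted from fresh bone marrow of C57BL/6 mice and not cultured. Mutant (RH) cells came from Dnmt3a fl-R878H/+ mice crossed with the B6.Cg-Tg(Mx1-cre)1Cgn/J strain, and wild-type (WT) cells from Dnmt3a+/+ mice crossed with that same strain, so both genotypes carried Mx1-cre, a recombinase gene under an interferon-responsive promoter that is not limited to blood cells. The Dnmt3a protein places new methyl groups on DNA. Mice received metformin (MET) or vehicle (VEH) for 1 month in a competition experiment in living animals. The comparison asks what the drug does to the transcripts of progenitors with and without the mutation. The groups RH MET, RH VEH, WT MET and WT VEH had 3 libraries each. Per the labels there were 2 animals for each treatment group, and which animal a library came from is not stated. The p-values therefore rest on library-to-library spread, part of which may be technical. Counts per gene do not show the mutated base, so genotypes rest on the labels.

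Mitochondria keep their own small genome, which encodes core subunits of the respiratory chain, and these are made only by the mitochondrial ribosome. Its rRNAs come from that genome (mt-Rnr1 in the small subunit, mt-Rnr2 in the large subunit), while all of its proteins are made in the cytosol and imported. The small subunit reads the message and the large subunit joins the amino acids. Metformin is a biguanide known to inhibit respiratory complex I, whose subunits come from both genomes, and mitochondrial translation is known to matter for how blood progenitors mature.

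The libraries held 13359583 to 21938003 counts, of which the mitochondrial ribosomal protein genes took 0.298% to 0.497%. Levels are CPM, counts scaled to a common library size by TMM normalisation, and 1 CPM stood for 8.37 to 24.8 reads. A pair of libraries stood apart, since mitochondrially encoded genes took 40.8% of the counts of RH VEH 2 and 33.3% of those of WT MET 2, against 1.57% to 4.32% in the other 10. The same pair had the lowest granulocyte marker levels, with a median over 11 genes of −1.25 in RH VEH 2 and −1.50 in WT MET 2 (log2, relative to each gene's mean over the 12 libraries), against −0.41 to 1.122 in the others. All 11 markers were detected in every library, and their summed level was 4626 to 7222 CPM in RH MET, 1607 to 5143 CPM in RH VEH, 1505 to 5954 CPM in WT MET and 3578 to 7623 CPM in WT VEH. The pair also stood apart for other marker lists. Megakaryocyte medians of 0.601 in RH VEH 2 and 1.368 in WT MET 2 were the highest of the 12 libraries. Their medians for monocyte markers (−1.291 and −0.841) and for mast cell and basophil markers (−0.581 and −0.827) were the lowest. Kit, which encodes the receptor used for the sort, was at 118 to 200 CPM in every library. Transcripts of granulocytes and red cell precursors were also abundant, with 538 to 2125 CPM of Mpo and 1263 to 3483 CPM of Hba-a1. Among 10 T and NK cell markers, Cd3e was at 0.378 to 3.08 CPM, Lck at 5.90 to 19.8 CPM and Nkg7, the highest, at 34.5 to 70.8 CPM. In bulk RNA, fewer cells of a type and less RNA per cell cannot be told apart.

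The promoters of the 3 Mrps18 genes are shown because these paralogues, which descend from 1 bacterial protein, came out with different levels per kilobase. Their metformin differences, described further on, had different signs, but none passed the test and the paralogues were not tested against each other. Any part of the promoters in these differences was not tested. In structures of the mammalian mitochondrial ribosome Mrps18a sits in the large subunit, despite its name, and Mrps18b and Mrps18c sit in the small one. Each line has 250 bases before the RefSeq start and 25 from it, in build GRCm38.p6, with the motif found there in capitals (that of YY1 in Mrps18a, of NRF1 in Mrps18b and of ETS factors in Mrps18c). RefSeq's start is not always that of the count table.
Mrps18a promoter, chr17:46110754-46111028, + strand: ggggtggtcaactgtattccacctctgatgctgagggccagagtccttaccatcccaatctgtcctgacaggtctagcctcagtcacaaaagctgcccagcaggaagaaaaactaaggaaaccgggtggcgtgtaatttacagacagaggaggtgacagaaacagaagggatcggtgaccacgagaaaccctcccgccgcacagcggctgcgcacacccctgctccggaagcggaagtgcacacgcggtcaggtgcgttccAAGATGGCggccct
Mrps18b promoter, chr17:35916416-35916690, - strand: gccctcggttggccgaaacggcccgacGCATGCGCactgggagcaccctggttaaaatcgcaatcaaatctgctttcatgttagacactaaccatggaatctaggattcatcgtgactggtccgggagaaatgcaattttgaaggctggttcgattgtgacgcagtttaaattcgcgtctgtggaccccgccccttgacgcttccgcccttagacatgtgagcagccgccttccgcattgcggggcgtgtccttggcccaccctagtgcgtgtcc
Mrps18c promoter, chr5:100798509-100798783, + strand: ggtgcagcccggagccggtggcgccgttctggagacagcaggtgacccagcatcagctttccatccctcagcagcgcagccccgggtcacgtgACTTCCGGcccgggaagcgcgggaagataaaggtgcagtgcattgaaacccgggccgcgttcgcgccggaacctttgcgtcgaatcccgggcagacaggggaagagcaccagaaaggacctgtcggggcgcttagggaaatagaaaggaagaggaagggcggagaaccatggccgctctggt

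NRF1 and the ETS factor GABP are known as activators of nuclear genes for mitochondrial proteins, and YY1 motifs are common near the starts of ribosomal protein genes. Short motifs were searched on both strands in 300-base RefSeq windows (250 bases before a gene's start and 50 from it), which were found for 69 of the 78 genes. They were GCGCATGC for NRF1, ACTTCCGG for ETS factors and AAGATGGC for YY1. The NRF1 letters overlap their own reverse complement, and a gene was counted once for each motif. The NRF1 motif was present for 8 of 69 genes (11.6%), among them Mrpl17, Mrpl22 and Mrps18b, against 5.83% of 10397 genes tested for expression that have a window and 3.05% of all 27025 genes with one. ETS motifs occurred for 12 of 69 (17.4%), including Mrpl3, Mrpl18, Mrpl52, Mrps18c and Mrps22, against 8.98% and 4.31%. YY1 motifs occurred for 12 of 69 (17.4%), including Mrpl36, Mrps7, Mrps11, Mrps12 and Mrps18a, against 5.14% and 3.19%. Most of these YY1 motifs began after the gene's start, as in Mrps18a (11 bases past it) and Mrps7 (18 bases past it). At least 1 motif was found for 29 of 69 genes, against 18.5% of the tested genes and 9.91% of all genes. The letters alone do not show that a factor binds.

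Many of these genes start back to back with another gene. A protein-coding gene on the other strand started within 1000 bases upstream for 19 of 78 genes (24.4%), against 10.4% of 12479 other protein-coding genes tested and 6.79% of 21968 other protein-coding genes in all. Several of the partners also act in mitochondria. Mrpl43 starts 116 bases from Twnk, the helicase of mitochondrial DNA, Mrps12 starts 172 bases from Sars2, the mitochondrial seryl-tRNA synthetase, and Mrps27 starts 81 bases from Ptcd2, which encodes a pentatricopeptide repeat protein of mitochondria. Mrps18b starts 45 bases from Ppp1r10 and Mrps18c starts 29 bases from the DNA helicase gene Helq.

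Mrpl53 (ENSMUSG00000030037, mm10 chr6:83109040-83109939, + strand) encodes a large-subunit protein found only in mitochondrial ribosomes. It had 0 counts in all 12 libraries, which for counting error alone allows up to 3 counts, or 0.121 to 0.358 CPM. Of its exon bases, 88% also belong to Gm42688 on the same strand, which had 14 to 81 counts. The sources used here do not give how reads in shared bases were assigned, so the count of 0 is not a measure of its transcript. Exons of 8 of the 78 genes overlap another gene on their own strand and those of 28 overlap one on the other strand. The overlap was 69.8% of the exon bases for Mrps25, which lies opposite to Nr2c2, and for Mrps34 it was 63.4% opposite to Mapk8ip3 and 37% with Nme3 on its own strand. Values of these genes are uncertain to that extent.

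Levels per kilobase of gene length, which allow genes to be compared, covered a 25.1-fold range. Mrpl34, the homologue of a very small bacterial large-subunit protein, was highest at 118 ± 24.1 CPM per kilobase (SD, n = 12 libraries), followed by Mrpl52 at 98.8 ± 27.1, Mrpl28 at 84.4 ± 27.4, Mrpl18 at 70.1 ± 13.3 and Mrps28 at 68.6 ± 14.3 CPM per kilobase. Mrps35 was lowest at 4.71 ± 0.735 CPM per kilobase, below Mrps10 at 5.23, Mrps25 at 5.78, Mrpl48 at 6.04 and Mrpl47 at 6.30 CPM per kilobase. In all 76 pairs of neighbours in this order the difference was smaller than the larger of their SDs. The median was 22.5 CPM per kilobase for the Mrpl names and 15.6 for the Mrps names. Gene length in the table is that of all annotated exons, which can be far longer than the transcript made.

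**Figure D1:**
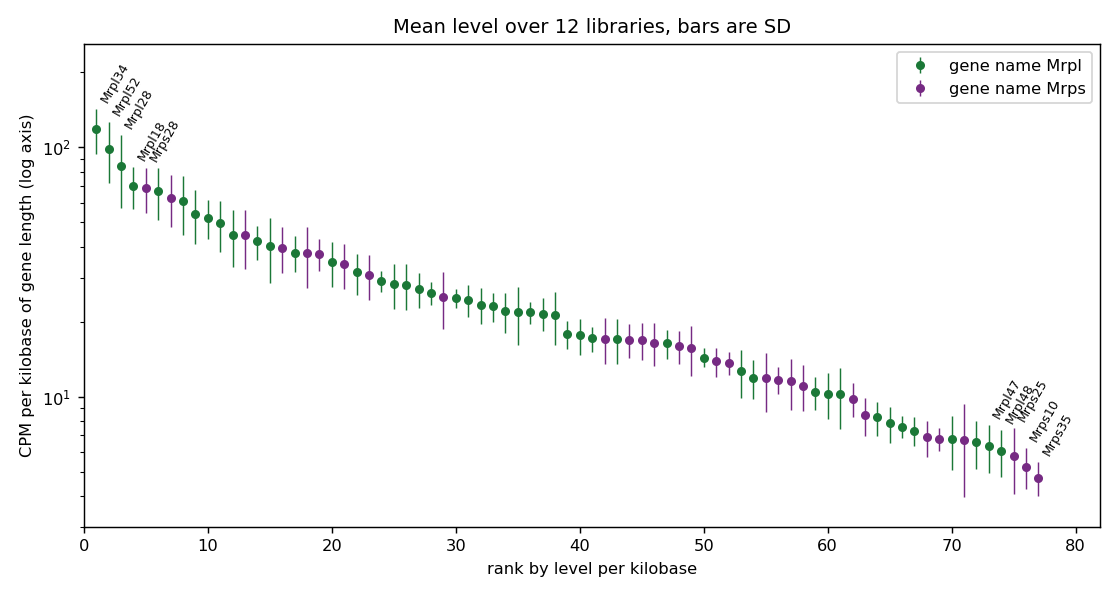
Mean level of the 77 mitochondrial ribosomal protein genes with counts, in CPM per kilobase of gene length on a log axis, in order of level, with bars of 1 SD over 12 libraries. Mrpl34 stands highest at 118 and Mrps35 lowest at 4.71 CPM per kilobase, and no gap between neighbours exceeds the larger of their SDs.

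Among the paralogues, Mrps18c stood at 25.2 ± 6.56 CPM per kilobase, Mrps18b at 11.5 ± 2.65 and Mrps18a at 9.81 ± 1.57 (SD, n = 12). Mrps18c was thus 2.19-fold above Mrps18b and 2.57-fold above Mrps18a per kilobase. Before division by length, means were 27.1 CPM for Mrps18c, 24.0 CPM for Mrps18b and 36.2 CPM for Mrps18a, with Mrps18a highest. The order per kilobase therefore rests on the deposited lengths of 1076, 2089 and 3690 bases for Mrps18c, Mrps18b and Mrps18a. Of the exon bases of Mrps18c, 23.2% are shared on the same strand with Gm43511, which had at most 22 counts, and 30.5% of those of Mrps18b lie opposite to Gm16279, which had 10 to 46.

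The genes moved together from library to library, most widely among the vehicle libraries of both genotypes. Their summed level was 3994, 3777 and 3588 CPM in RH MET 1 to 3, 4874, 4763 and 3158 CPM in RH VEH 1 to 3, 4236, 4221 and 3995 CPM in WT MET 1 to 3, and 4962, 3657 and 3131 CPM in WT VEH 1 to 3. Under metformin the 3 libraries of a genotype lay close together, and all RH libraries lay below all WT libraries, though RH MET 1 and WT MET 3 nearly met. Under vehicle both genotypes had libraries at the top and at the bottom, and the RH range lay within the WT range. In WT VEH 3, 0 of the 77 genes were above their own 12-library mean, and in RH VEH 3 only 4 were, while 71 were above it in RH VEH 1, 61 in RH VEH 2 and 70 in WT VEH 1.

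Medians over the 77 genes of the log2 level relative to each gene's own mean were 0.02, −0.08 and −0.15 in RH MET 1 to 3 and 0.30, 0.27 and −0.34 in RH VEH 1 to 3. They were 0.12, 0.01 and 0.02 in WT MET 1 to 3 and 0.31, −0.09 and −0.35 in WT VEH 1 to 3. The SD of these medians over the 3 libraries was 0.09 in RH MET, 0.36 in RH VEH, 0.06 in WT MET and 0.33 in WT VEH, so the vehicle groups spread far more than the metformin groups. Shorter and longer genes shifted alike, with medians of 0.35 and 0.23 in RH VEH 1 and of −0.35 and −0.34 in WT VEH 3 for the 39 genes up to 2255 bases and the 38 longer ones. Single genes were most spread in RH VEH 2 and WT MET 2, with SDs of 0.29 and 0.32 around the library, against 0.14 to 0.20 in the other 10. This was not particular to these genes. Over all genes tested the range between the quartiles was 0.67 in both libraries, against 0.31 to 0.49 in the other 10. RH VEH 2 and WT MET 2 are the libraries with the high mitochondrial share and the low granulocyte markers. They also had the fewest reads per CPM, 8.37 and 9.86. The part of any of these in the spread was not tested.

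**Figure D2:**
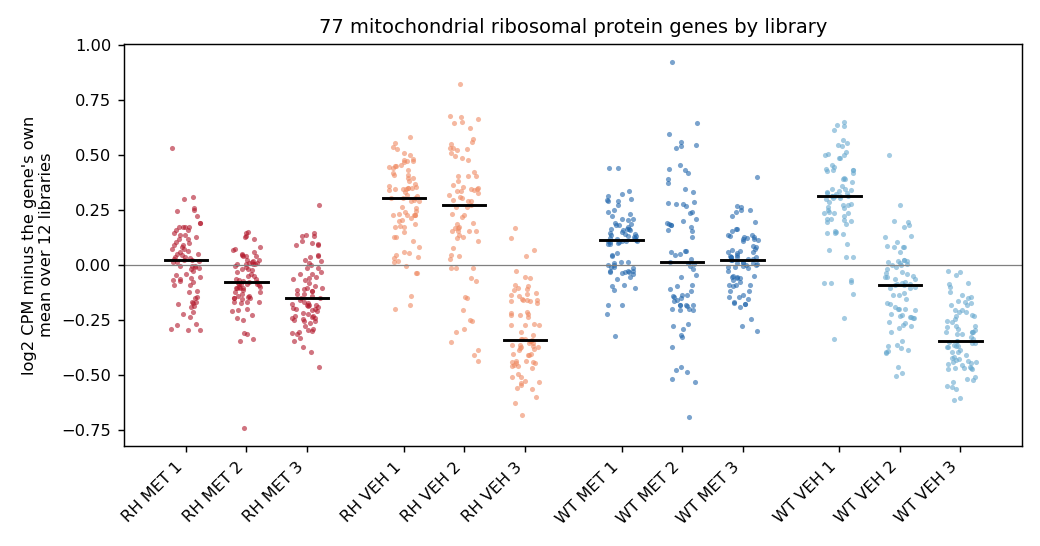
Log2 CPM of each of 77 mitochondrial ribosomal protein genes minus its own mean over 12 libraries (points), with the median of each library (bar), by group. RH VEH 1, RH VEH 2 and WT VEH 1 stand high (medians 0.30, 0.27 and 0.31) and RH VEH 3 and WT VEH 3 low (−0.34 and −0.35).

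The cytosolic ribosome, which makes all other proteins, and the nuclear-encoded subunits of respiratory complex I also stood high in RH VEH 1, RH VEH 2 and WT VEH 1 and low in RH VEH 3 and WT VEH 3. Medians of the cytosolic ribosomal protein genes were 0.28, 0.26 and −0.39 in RH VEH 1 to 3 and 0.35, −0.26 and −0.24 in WT VEH 1 to 3 (log2, relative to each gene's mean). The libraries were not ordered alike in all 3 sets, since in WT MET 2 the median was 0.24 for the cytosolic genes and 0.22 for complex I but 0.01 for the mitochondrial ribosomal protein genes. Cytosolic ribosomal protein genes summed to 76620 to 78410 CPM in RH MET, 69580 to 108300 CPM in RH VEH, 96590 to 103900 CPM in WT MET and 74070 to 112800 CPM in WT VEH. Complex I genes had medians of 0.46 and 0.31 in RH VEH 1 and 2 and of −0.37 in RH VEH 3, and of 0.43 in WT VEH 1 and −0.37 in WT VEH 3 (log2, relative to each gene's mean). In the libraries where the mitochondrial ribosomal protein genes were lowest, granulocyte marker medians were 0.35 in RH VEH 3 and 1.122 in WT VEH 3. Where they were highest the same markers were at −0.37 in RH VEH 1, −1.25 in RH VEH 2 and −0.41 in WT VEH 1. Some other marker lists had this order too, but not all. T and NK cell marker medians were −0.025 in WT VEH 3 and 0.468 in WT VEH 1, and B cell marker medians 0.345 and 0.414. Progenitor marker medians were 0.26 in RH VEH 3 and 0.41 in WT VEH 3, against −0.06, −0.20 and −0.31 in RH VEH 1, RH VEH 2 and WT VEH 1. Monocyte marker medians were 0.59 and 0.61, against 0.10, −1.29 and −0.05, in the same libraries. WT VEH 2 was at −0.24 for granulocyte, −0.112 for progenitor and −0.348 for monocyte markers, with the mitochondrial ribosomal protein genes at −0.091. Under metformin granulocyte medians were 0.52, 0.49 and 1.09 in RH MET 1 to 3 and −0.13, −1.50 and 0.62 in WT MET 1 to 3. Medians of the mitochondrial ribosomal protein genes were 0.02, −0.08 and −0.15 in RH MET 1 to 3 and 0.12, 0.01 and 0.02 in WT MET 1 to 3. The granulocyte order seen under vehicle held only in part. RH MET 3 had the highest granulocyte median and the lowest median of these genes. WT MET 2, with the lowest granulocyte median, was at 0.01 for these genes. Erythroid marker medians were 0.25, 0.18 and −0.15 in RH VEH 1 to 3 and 0.22, 0.09 and −0.33 in WT VEH 1 to 3. The 7 erythroid markers, all detected, summed to 5113 to 7215 CPM in RH MET, 5903 to 7767 CPM in RH VEH, 7123 to 9452 CPM in WT MET and 5587 to 9105 CPM in WT VEH. The part of these cell types in the library levels was not tested.

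No mitochondrial ribosomal protein gene passed the test in any of the 7 comparisons made. The test was edgeR's quasi-likelihood test with Benjamini-Hochberg adjustment over all genes tested, called under 0.05, in a model with the 4 groups and the deposit round (round 1 for the 6 libraries that also stand in a smaller deposited table, round 2 for the other 6). DESeq2 also called 0. Of all genes, 0.00667% (1 gene) were called for RH MET against WT MET and 0.00667% (1 gene) for the mean of RH against the mean of WT, and 0% in the other 5 comparisons. What follows gives directions and sizes as values that did not pass. Log2 fold changes are adjusted for round and CPM values are not, so their sizes can differ.

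Under vehicle, mutant cells stood slightly above wild-type cells. The median log2 fold change of RH VEH against WT VEH was 0.22 over the 77 genes, with 66 (85.7%) above 0, against a median of 0.00 and 50.3% for all genes. Medians were 0.21 for the Mrpl names and 0.22 for the Mrps names. Mrpl1, the homologue of the protein of the mobile stalk through which spent tRNAs leave the large subunit, had 29.2, 44.1 and 24.99 CPM in RH VEH and 25.2, 26.5 and 19.9 CPM in WT VEH. Its groups overlapped by the lowest RH library, and its log2 fold change of 0.47 ± 0.216 (SE, n = 3 libraries a group, edgeR unadjusted p = 0.0495, adjusted p = 0.977) was the only one with an unadjusted p under 0.05, where 1.11% of all genes had such a p above 0 and 0.913% below 0. The highest values of Mrpl1 over the 12 libraries, 44.1 and 33.57 CPM, were in RH VEH 2 and WT MET 2, the libraries of high mitochondrial share. Mrps33, a small-subunit protein, had 30.5, 32.7 and 29.2 CPM in RH VEH and 26.5, 27.5 and 25.2 CPM in WT VEH. It was the only one with every RH library above every WT library, as for 2.71% of all genes, and no gene had the reverse, as 3.23% of all genes did. Its log2 fold change was 0.20 ± 0.200. The median rested on single libraries, at 0.08 without RH VEH 2, 0.08 without WT VEH 3, 0.14 without WT VEH 2, 0.38 without WT VEH 1 and 0.34 without RH VEH 3. It was 0.08 without RH VEH 2 and WT MET 2, the libraries of high mitochondrial share, 0.16 within round 1 alone and 0.28 within round 2 alone. Within 1 round every comparison has a group of a single library, so the values by round given here and further on are descriptions with no test.

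A few genes had the other sign under vehicle. Mrps18b averaged 19.9 ± 1.67 CPM in RH VEH and 25.4 ± 6.75 CPM in WT VEH (SD, n = 3 each), and Mrps22, a mitochondria-specific small-subunit protein, 29.8 ± 5.61 and 34.8 ± 4.44 CPM. Mrpl3, whose bacterial homologue reaches towards the peptidyl transferase centre, averaged 71.2 ± 12.01 CPM in RH VEH and 86.4 ± 10.9 CPM in WT VEH. Log2 fold changes were −0.23 ± 0.219 for Mrps18b, −0.21 ± 0.213 for Mrps22 and −0.20 ± 0.195 for Mrpl3.

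Under metformin the genotypes stood the other way round. For RH MET against WT MET the median log2 fold change was −0.19, with 63 of 77 genes below 0, against −0.02 and 52% for all genes. Every RH library was below every WT library for 15 of the 77 genes, as for 8.94% of all genes, and above for 2 (Mrpl44 and Mrpl49), as for 7.97%. The 15 were Mrpl1, Mrpl13, Mrpl23, Mrpl28, Mrpl33, Mrpl41, Mrpl48, Mrpl52, Mrpl57, Mrpl58, Mrps11, Mrps18a, Mrps18c, Mrps21 and Mrps28, spread over both subunits. This median moved least when single libraries were left out, between −0.27 and −0.15, and was −0.17 without RH VEH 2 and WT MET 2, −0.13 within round 1 alone and −0.16 within round 2 alone. Without the round term it was −0.11. In the same comparison 79 of 81 cytosolic ribosomal protein genes were below 0 (median −0.37), 50 of them with no overlap, and 35 of 37 complex I genes were below 0 (median −0.40), 13 of them with no overlap. Granulocyte marker medians were 0.49 to 1.09 in the RH MET libraries and −1.50 to 0.62 in the WT MET libraries. The summed erythroid markers given above also stood mostly lower in RH MET than in WT MET. T and NK cell markers were lower in RH MET for 10 of 10 (median log2 fold change −1.09, 5 with no overlap), with summed levels of 48.2 to 97.7 CPM in RH MET and 92.7 to 116.9 CPM in WT MET. Megakaryocyte markers were lower for 5 of 5 tested (median −0.70, 3 with no overlap), with 619 to 654 CPM in RH MET and 668 to 1743 CPM in WT MET, while Gp1bb of the same list had 0 to 8 counts in each of the 12 libraries. The 1743 CPM was that of WT MET 2, against 862 CPM in WT MET 1 and 668 CPM in WT MET 3. The part of any of these markers in the differences was not tested.

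Mrps28, the mitochondrial relative of the bacterial protein that helps mRNA onto the small subunit, is 1 of these 15, at 46.0, 48.7 and 46.6 CPM in RH MET and 59.4, 57.4 and 55.1 CPM in WT MET. The spread within both groups was small against the gap between them. The log2 fold change was −0.36 ± 0.211 (edgeR unadjusted p = 0.108), from a fit with 1 estimate of spread over all 4 groups, and in the vehicle groups this gene ran from 39.0 to 71.9 CPM. Mrpl52 had 101, 89.4 and 85.7 CPM in RH MET and 131, 137 and 110 CPM in WT MET, at −0.56 ± 0.291. Mrpl58, a peptidyl-tRNA hydrolase built into the large subunit that frees stalled peptides, had 27.3, 27.0 and 30.6 CPM in RH MET and 39.9, 39.7 and 34.6 CPM in WT MET, at −0.46 ± 0.221 (edgeR unadjusted p = 0.0581). Both genes had all RH libraries below all WT libraries.

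Unadjusted p-values under 0.05 were found for 2 genes, both lower in RH MET, as for 3.59% of all genes, and for no gene that was higher, as for 2.19%. Mrps30, which despite its name lies in the large subunit in structures of the mammalian ribosome, had 46.7, 44.5 and 40.9 CPM in RH MET and 61.2, 51.1 and 45.4 CPM in WT MET. Its groups overlapped, and the log2 fold change was −0.36 ± 0.145 (edgeR unadjusted p = 0.0275, adjusted p = 0.738). Mrps6, homologue of a bacterial small-subunit protein that pairs with the bacterial relative of the Mrps18 proteins, had 9.62, 5.66 and 7.57 CPM in RH MET and 12.97, 18.2 and 7.73 CPM in WT MET. Its log2 fold change was −0.80 ± 0.363 (edgeR unadjusted p = 0.0472, adjusted p = 0.738). The highest WT MET value of Mrps6 was in the library with 33.3% mitochondrial counts. Exons of Mrps6 share 19.9% of their bases with Gm49711, which had 0 counts, and 10.4% with Slc5a3, which had 32 to 111.

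Metformin against vehicle had medians of opposite sign in the 2 genotypes. In mutant cells the median log2 fold change of RH MET against RH VEH was −0.26, with 64 of 77 genes below 0, against −0.01 and 50.7% for all genes. In wild-type cells the median for WT MET against WT VEH was 0.16, with 65 of 77 above 0, against 0.01 and 51.9%. Of the 77 genes, 61 (79.2%) were lower in RH and higher in WT, against 34.4% of all genes tested, and 9 (11.7%) were higher in RH and lower in WT, against 31.8%. These counts carry no test, because genes that move together within a library are not independent.

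**Figure D3:**
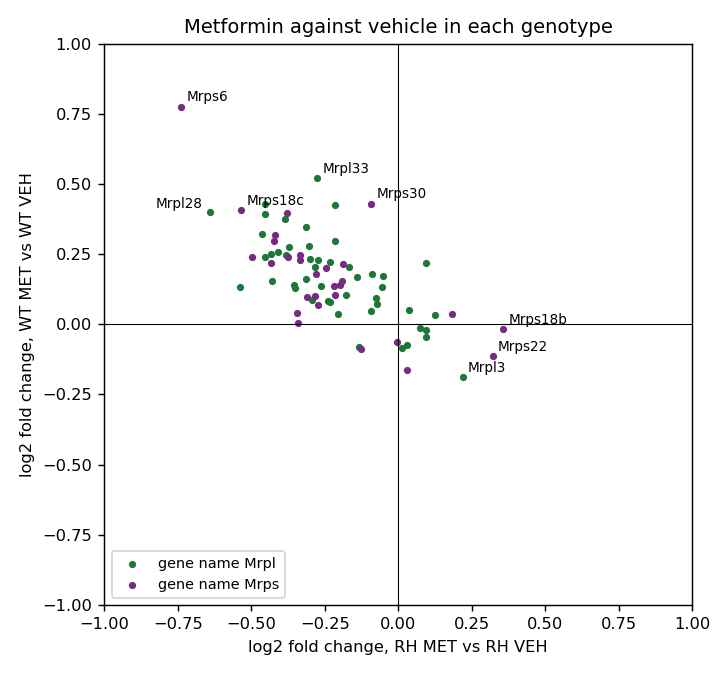
Log2 fold change of metformin against vehicle in mutant cells (RH MET against RH VEH, horizontal) and in wild-type cells (WT MET against WT VEH, vertical) for 77 mitochondrial ribosomal protein genes, coloured by gene name. Of them, 61 lie at the upper left (lower in RH, higher in WT), Mrps6 farthest out, and 9 at the lower right, with Mrps18b, Mrps22 and Mrpl3 farthest out.

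In mutant cells Mrpl34 was the only gene with an unadjusted p under 0.05, as were 1.52% of all genes below 0 and 0.906% above 0. It had 57.3, 66.6 and 60.9 CPM in RH MET and 92.4, 93.0 and 57.0 CPM in RH VEH, so that RH VEH 3 lay below all metformin libraries while the other vehicle libraries lay above them. The log2 fold change was −0.46 ± 0.205 (edgeR unadjusted p = 0.0451, adjusted p = 0.932). Mrpl28 had 90.6, 93.0 and 74.3 CPM in RH MET and 150.5, 163 and 67.6 CPM in RH VEH, at −0.64 ± 0.342, with the same library low. No gene had all metformin libraries below all vehicle libraries, which 2.81% of all genes had. The median was −0.11 without RH VEH 2 and −0.39 without RH VEH 3, and it was −0.34 within round 1 alone and −0.11 within round 2 alone.

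The reverse separation was seen for 3 genes, which had every RH MET library above every RH VEH library, as 4.11% of all genes had. They were Mrpl3 with 96.0, 86.2 and 80.5 CPM in RH MET and 75.9, 57.6 and 80.2 CPM in RH VEH, Mrps18b with 34.0, 24.8 and 23.9 CPM in RH MET and 20.7, 17.9 and 20.95 CPM in RH VEH, and Mrps2 with 47.9, 43.4 and 41.1 CPM in RH MET and 41.0, 31.4 and 39.3 CPM in RH VEH. For Mrpl3 and Mrps2 the gap was below 1 CPM. Mrps2 is a homologue of a bacterial protein on the outer face of the small subunit. Their log2 fold changes were 0.22 ± 0.195, 0.36 ± 0.218 and 0.18 ± 0.160, none with an unadjusted p under 0.05. Under the same treatment Mrps18c had 23.7, 21.1 and 21.7 CPM in RH MET and 35.8, 37.4 and 20.3 CPM in RH VEH, at −0.54 ± 0.257, and Mrps18a had 35.1, 33.3 and 30.5 CPM in RH MET and 44.2, 41.9 and 27.6 CPM in RH VEH, at −0.27 ± 0.183.

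In wild-type cells Mrps30 had 61.2, 51.1 and 45.4 CPM in WT MET and 46.2, 51.6 and 30.5 CPM in WT VEH, at a log2 fold change of 0.43 ± 0.147 (edgeR unadjusted p = 0.0125, adjusted p = 0.876). Mrpl18 had 120, 117 and 92.4 CPM in WT MET and 111, 96.3 and 62.9 CPM in WT VEH, at 0.43 ± 0.191 (edgeR unadjusted p = 0.0449). Those were the 2 genes with an unadjusted p under 0.05, which 2.1% of all genes had above 0 and 1.93% below 0, and both had overlapping groups. Mrpl1 alone had every metformin library above every vehicle library, with 30.0, 33.6 and 28.2 CPM in WT MET and 25.2, 26.5 and 19.9 CPM in WT VEH, as 4.98% of all genes had, and no gene had the reverse, which 4.4% of all genes had. The median of 0.16 was 0.04 without WT VEH 3, 0.09 without WT VEH 2 and 0.32 without WT VEH 1. It was −0.05 within round 1 alone and 0.32 within round 2 alone. This median was also smaller without the round term, with the value given further on.

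**Figure D4:**
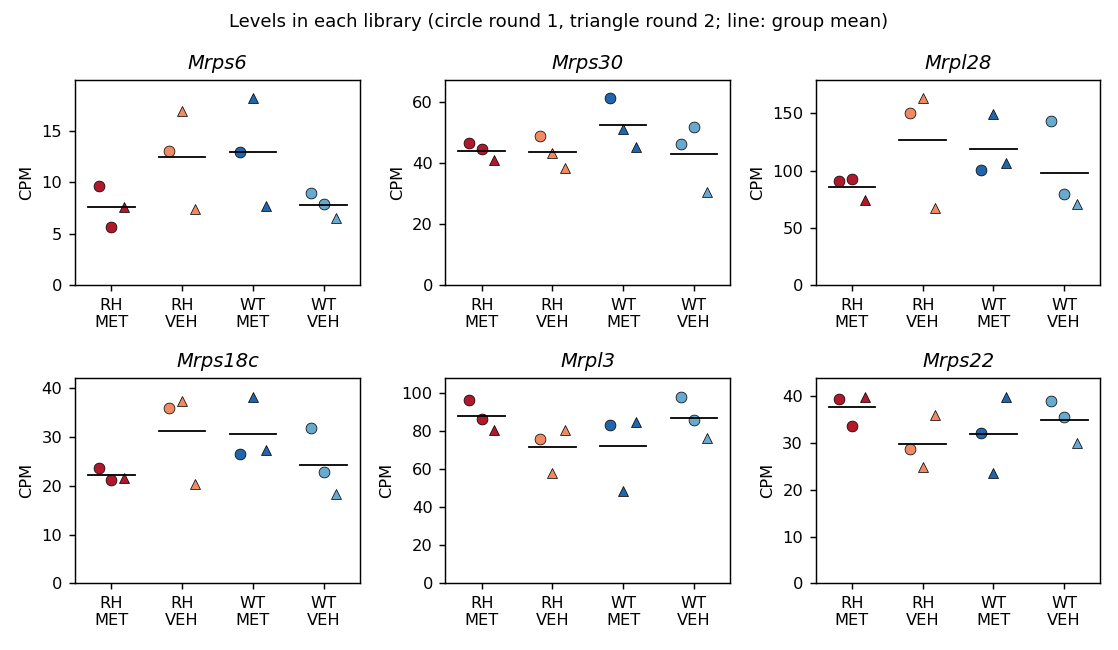
CPM in each library of 6 mitochondrial ribosomal protein genes by group (points, with the group mean as a bar, circles for round 1 and triangles for round 2). Mrps6, Mrpl28 and Mrps18c have lower means in RH MET than in RH VEH and higher ones in WT MET than in WT VEH, Mrpl3 and Mrps22 the reverse, and RH VEH 3 lies low for Mrps6, Mrpl28 and Mrps18c.

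The difference between the metformin effects, RH minus WT, had a median log2 value of −0.40 over the 77 genes, with 65 below 0, against −0.02 and 51.7% for all genes. Of the 77 genes, 9 had an unadjusted p under 0.05, all negative, as for 3.77% of all genes, where 2.45% had such a p with a positive value. The lowest adjusted p was 0.648. The 9 were Mrps6, Mrps18c, Mrps30, Mrpl1, Mrps28, Mrpl18, Mrpl34, Mrps35 and Mrpl36. The largest was that of Mrps6, at −1.52 ± 0.530 (edgeR unadjusted p = 0.0137), followed by Mrpl28 at −1.04 ± 0.511 (unadjusted p = 0.0671) and Mrps18c at −0.94 ± 0.382 (unadjusted p = 0.0290). Group means of Mrps6 were 7.62 ± 1.98 CPM in RH MET, 12.5 ± 4.80 CPM in RH VEH, 12.95 ± 5.21 CPM in WT MET and 7.78 ± 1.26 CPM in WT VEH (SD, n = 3 each). The highest single values of Mrps6, 17.0 and 18.2 CPM, were those of RH VEH 2 and WT MET 2, the libraries with the high mitochondrial share. Without these 2 libraries the median over all 77 genes was −0.26, and without WT VEH 3 it was −0.25. It was −0.33 within round 1 alone, −0.49 within round 2 alone and −0.25 without the round term.

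Positive values of that difference were found for 12 genes, namely Mrpl3, Mrpl10, Mrpl16, Mrpl19, Mrpl30, Mrpl40, Mrpl44, Mrps2, Mrps5, Mrps18b, Mrps22 and Mrps27. The largest were 0.44 ± 0.308 for Mrps22, 0.41 ± 0.283 for Mrpl3 and 0.37 ± 0.316 for Mrps18b. Each of them had its lowest values of the 12 libraries in RH VEH 2 and WT MET 2, the libraries with the high mitochondrial share. These were 24.85 and 23.53 CPM for Mrps22, 57.59 and 48.28 CPM for Mrpl3, and 17.92 and 16.33 CPM for Mrps18b. The part of these libraries in the positive values was not tested. Mrpl44, which has a ribonuclease-like domain, was at 0.14 ± 0.207, and Mrps27, a pentatricopeptide repeat protein, at 0.20 ± 0.235. Mrps18b and Mrps18c therefore had opposite signs, at 0.37 and −0.94, and Mrps18a was at −0.34 ± 0.269, but the difference between the paralogues was not tested. In RH VEH 2 and WT MET 2, where Mrps18b was lowest, Mrps18c had its highest values of the 12 libraries, 37.4 and 38.24 CPM.

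**Figure D5:**
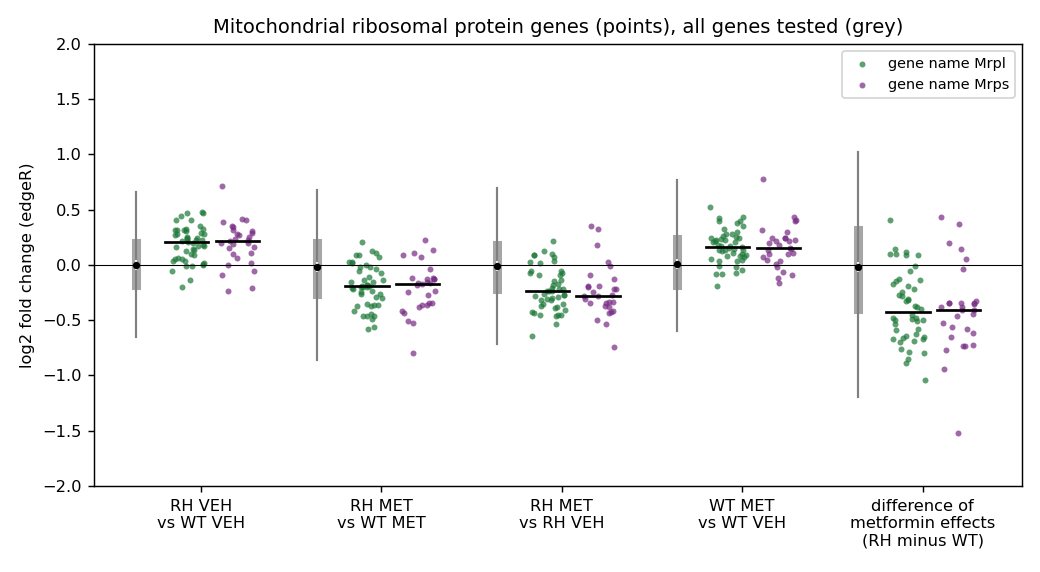
Log2 fold changes of 77 mitochondrial ribosomal protein genes in 4 comparisons and in the difference of the metformin effects (points, with medians as bars), beside all genes tested (grey, with the median as a dot, the quartiles as the ends of a thick bar and the 5th to 95th percentile as a thin one). Medians over all 77 were 0.22, −0.19, −0.26, 0.16 and −0.40 from left to right, and no point passed the test.

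Other proteins with known places in the ribosome had these values for the difference of the metformin effects. Mrpl12, which forms the stalk that binds translation factors and in human cells also binds the mitochondrial RNA polymerase, was at −0.37 ± 0.448, and Mrpl11, at the base of that stalk, at −0.50 ± 0.317. Mrps12, in the decoding centre, was at −0.74 ± 0.405, Mrps7 at −0.38 ± 0.332, Mrps15 at −0.62 ± 0.314 and Mrps5, near the entry of the mRNA, at 0.06 ± 0.226. None had an unadjusted p under 0.05.

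Averaged over treatments or genotypes, medians were close to 0. The mean of RH against the mean of WT had a median log2 fold change of 0.01, with 42 of 77 genes above 0, against 49.7% of all genes, and the mean of MET against the mean of VEH had −0.04, with 24 of 77 above 0, against 47.7% of all genes. In both comparisons 0 of the 77 had an unadjusted p under 0.05 (edgeR). Of all genes, 0.833% had one higher and 1.81% one lower in RH, and 0.966% one higher and 0.66% one lower under metformin.

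Genes that work with the mitochondrial ribosome were counted for the difference between the metformin effects. No gene of these lists passed the test in any comparison. Of the 5 ribosomal proteins with other names, 4 were below 0 (median −0.24), with Aurkaip1 at −0.81 ± 0.372 and Dap3, which binds GTP in the small subunit, at −0.43 ± 0.234. Of 25 assembly factors and rRNA enzymes, 17 were below 0 (median −0.37), with Mettl17, a factor of small-subunit assembly, at −1.07 ± 0.404 (edgeR unadjusted p = 0.0206, adjusted p = 0.648). Of 15 translation factors, 7 were below 0 (median 0.01), and of 10 genes for transcription and upkeep of mitochondrial DNA, 8 were (median −0.12). Of 22 genes for protein import, 17 were below 0 (median −0.31). Cytosolic ribosomal protein genes had 78 of 81 below 0 (median −0.59) and complex I genes 34 of 37 (median −0.65). So the direction described for the mitochondrial ribosomal proteins was shared by the cytosolic ribosome and complex I, and their medians were further from 0.

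The rRNAs of the mitochondrial ribosome followed the libraries with the high mitochondrial share. Their summed level was 595 to 927 CPM in RH MET, 768 to 17820 CPM in RH VEH, 851 to 15040 CPM in WT MET and 523 to 730 CPM in WT VEH. Log2 differences between the metformin effects were −4.70 ± 2.43 for mt-Rnr1 and −4.25 ± 2.24 for mt-Rnr2 (edgeR unadjusted p = 0.0913 and 0.0967, adjusted p = 0.648 for both). Each of those high values came from 1 library. WT VEH 1 had the highest summed level of the protein genes, 4962 CPM, and the lowest of the rRNAs, 523 CPM.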

How the data were processed

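RNA of Lin-cKit+ mouse bone marrow cells was measured in 12 libraries, 3 in each of 4 groups. The authors deposited unnormalised counts of reads for each gene. Per the submitters' processing notes the build was mm10, and STAR 2.5 and HTSeq 0.6.1 are named with no settings. Strand and the handling of reads shared by genes are not given in the sources used here.

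Libraries carry the numbers of the columns of the table of 12 libraries. For 5 columns the name gives the sample, and for 7 only the group. A smaller deposited table of 8 columns holds 6 of the 12 libraries with identical counts; its 2 other columns match no sample and were not used. Libraries in both tables are called round 1 (RH MET 1 and 2, RH VEH 1, WT MET 1, WT VEH 1 and 2) and the others round 2.

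The test was edgeR 4.0.16 in R 4.3.3 (robust quasi-likelihood, TMM, filterByExpr, 15003 genes kept, means of the 4 groups plus a round term, 12 libraries), with Benjamini-Hochberg adjustment over all genes in each comparison and calls under 0.05. The biological coefficient of variation was 0.256. The scripts were tested on simulated data with known changes in RH VEH against WT VEH. Of 100 genes given a log2 change of 1 up or down, 51 were called, and of 100 given a change of 2, 95 were. False calls numbered 8. Smaller changes, the size of most values given here, were not simulated, so the lack of calls does not show that they are absent. Levels are TMM-normalised CPM, divided by the deposited gene length where given per kilobase. Alternatives were DESeq2 1.42.0, RLE factors, no filter, no round term, a replicate block, each round alone, removal of mitochondrial counts and leaving out each library. Overlaps with other exons used GENCODE M21, an alternative chosen after Mrpl53 was seen at 0; 73 of 78 genes have the same coordinates there. Promoters are from RefSeq.

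Named genes were the 5 of smallest p per direction in each of 4 comparisons, the 5 highest and 5 lowest per kilobase, the 3 most variable, 12 with known roles and the untested one. Mrps33, Mrps34, Mrps21 and others named in counts were added after their values were seen. The genes and lists were chosen with earlier results of these data known.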

Additional observations from a re-analysis of the deposited data

How the results depend on the processing

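Across 21 alternatives in each of 7 comparisons the count of mitochondrial ribosomal protein genes called was 0 with 1 exception. With no filter on low counts (27530 genes) 1 gene was called in the difference of the metformin effects, Mrpl28, at a log2 value of −0.95 (edgeR adjusted p = 0.0258); the cause was not tested.

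Leaving out each library in turn, medians over the genes ranged from 0.08 to 0.38 for RH VEH against WT VEH, −0.27 to −0.15 for RH MET against WT MET, −0.39 to −0.11 for RH MET against RH VEH, 0.04 to 0.32 for WT MET against WT VEH, and −0.54 to −0.25 for the difference of the metformin effects. They ranged from −0.06 to 0.07 for the mean of RH against WT and from −0.12 to 0.04 for the mean of MET against VEH, and calls stayed at 0 throughout. Under the other settings the medians kept their sign in the 4 single comparisons and the difference, except for WT MET against WT VEH, which was −0.05 within round 1 alone. With 1 round alone, every comparison has a group of a single library, so those medians carry no test. Without the round term they were 0.14, −0.11, −0.19, 0.08 and −0.25 in that order.

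The replicate numbers do not pair the libraries by their labels, which tie no number to an animal. Of 18 same-number pairs, 14 had deviations correlated above 0.1 (median 0.152), against 5 of 36 pairs with different numbers. In addition, 10 of 12 libraries correlated best with their own number. Most same-number pairs also shared a round, and 14 of 26 same-round pairs were above 0.1 (median 0.132), against 5 of 28 from different rounds. Pairs of the same number from different rounds had correlations from 0.0625 (WT MET 2 with WT VEH 2) to 0.121 (RH VEH 2 with WT VEH 2). All of those included RH VEH 2 or WT MET 2, the libraries with the high mitochondrial share. Pairs of the same round with different numbers ran from −0.367 (RH VEH 3 with WT MET 2) to 0.195 (RH MET 1 with WT VEH 2). Whether the numbers pair the libraries was not tested. With a replicate block in place of the round term the medians were 0.14, −0.11, −0.16, 0.10 and −0.26, with 0 calls.

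Of 5292 values of single named genes under the alternatives, 476 changed sign, all of them uncalled, and 1 passed the threshold that had not. Depth was 105 or more counts per tested gene and library.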
